A study of Mus musculus with 6 samples.

Results

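The genes described here encode the identity markers of stromal fibroblasts and the matrix proteins, other than collagens, that such cells lay down. A list of 35 genes was read from arrays of mouse choroid plexus, and every probe set that the platform annotation gives to 1 listed gene alone was taken. This found 73 probe sets for 33 of the 35 genes, among 34945 probe sets with 1 symbol and 18193 genes in all. Fbn1 and Efemp2 had no probe set named for them alone here. The tissue was the whole choroid plexus of the lateral ventricles of male CD1 mice, an outbred stock, with 3 old mice (18 months) and 3 young ones (2 months). The left and right plexuses of a mouse went onto 1 array together, and the labels name no allele, transgene or treatment in either age group.

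The choroid plexus is a folded epithelium that secretes cerebrospinal fluid. It sits on a core of loose stroma with leaky capillaries, fibroblasts and macrophages, and this core is continuous with the leptomeninges. Fibroblasts of such tissue fill it with collagen fibrils whose spacing is set by small leucine-rich proteoglycans, with elastic fibres built on fibrillin, elastin and fibulins, and with glycoproteins that link cells to these fibres. Several matrix genes are also used by epithelium, vessels and glia, so that a level in whole tissue does not belong to fibroblasts alone. In such bulk samples fewer cells of a type and less RNA per cell cannot be told apart.

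Values are log2 of the normalized intensity, with a standard deviation (SD) over 3 mice, and a difference is the mean at 18 months minus that at 2 months. The brightness of a probe set depends on its probes, so levels are compared between mice and not between genes. Of the 33 genes, 24 were bright enough to test, with a mean over all 6 arrays of at least 4.92. The remaining 9 lay below the filter, and their means were also under that of the brightest control probe set for a bacterial transcript, 4.51. The dimmest gene tested was Lum at 5.24 and the brightest gene left out was Fbln2 at 4.21. The label of the group was borne out only in part. The fibroblast collagens Col1a2 (mean 8.80), Col1a1 (7.02) and Col3a1 (6.06), which are not in the group, lay above the bacterial controls, as did Dcn (8.49) and Pdgfra (8.54). Dpt, which encodes the dermal fibroblast protein dermatopontin, lay at 2.17, within the controls.

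No adjusted p from limma was under 0.05, for 0 of the 24 genes and 0% of the 12681 tested. At an unadjusted p under 0.05, 2 of the 24 were higher at 18 months, Pdgfra and Eln, or 8.33% against 4.02% of all genes tested. Lower by the same measure were 5, namely Colec12, Postn, Ogn, Dcn and Foxc1, or 20.8% against 3.03%. The ages were separate, with no overlap between their 3 values each, for 2 genes in the higher direction (8.33% against 7.06% of all genes) and for 4 in the lower (16.7% against 6.25%). The median difference of the 24 genes was -0.04, beside 0.0032 for all genes, with 12 above 0 and 12 below. Their median difference without regard to sign was 0.41, beside 0.21 over all genes, and the median SD within an age was 0.38 beside 0.31. The counts rested in part on single mice, although leaving out a mouse also lowers the power of the test. Without 1 mouse at a time, the number lower at an unadjusted p under 0.05 ranged from 2 (without 18-month replicate 2) to 5, with 3 when 18-month replicate 1 or any of 2-month replicates 1, 2 and 3 was left out. The number higher ranged from 1 (without 2-month replicate 3) to 3 (without 18-month replicate 1 or 2-month replicate 2). Over all genes, 2.25% to 3.18% were lower and 3.26% to 3.90% higher in these fits. Pdgfra, Colec12 and Postn stayed under that p in 6 of the 6 fits, Dcn, Ogn and Eln in 3 each and Foxc1 in 1.

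**Figure D1:**
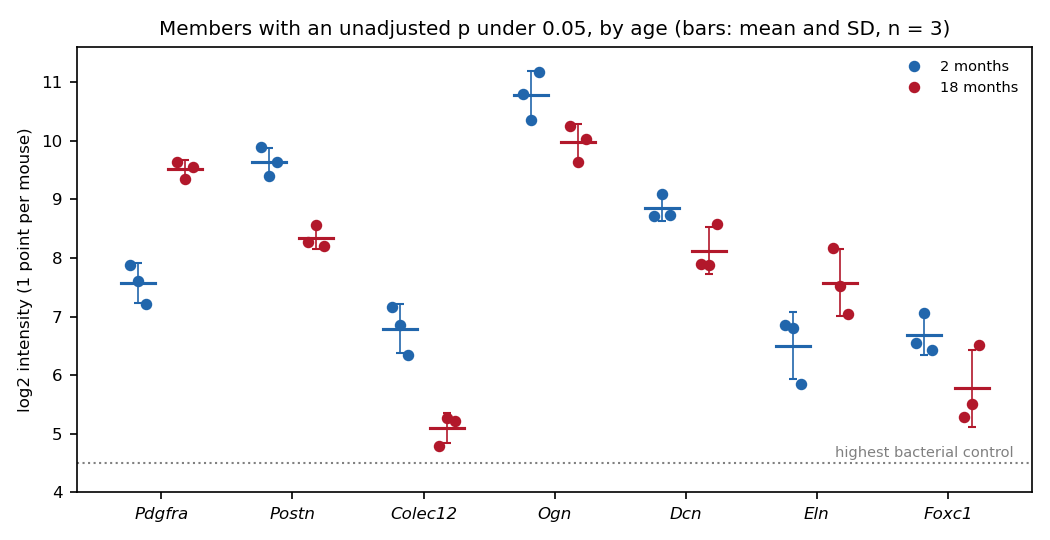
Log2 intensity (vertical axis) of the 7 genes with an unadjusted p under 0.05, 1 point per mouse, at 2 months (blue) and 18 months (red). Bars give the mean and SD over 3 mice and the dotted line the mean of the brightest bacterial control, 4.51. Of the 7, only Foxc1 has ages that overlap.

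Among the genes of cell identity, Pdgfra, which encodes the alpha receptor for platelet-derived growth factor and is used as a surface marker of fibroblasts and of oligodendrocyte precursors, had the smallest p of the group. Its brightest probe set read 9.64, 9.34 and 9.56 in the old mice and 7.88, 7.61 and 7.21 in the young ones. All 3 old mice lay above all 3 young ones, and by a gap wider than the range within either age. Means were 9.51 ± 0.15 and 7.57 ± 0.34 (SD, n = 3 each). The difference was 1.95 (SE 0.22, 95% confidence interval 1.41 to 2.48), or 3.85-fold, with a limma adjusted p of 0.118. Its 2 other probe sets reached the filter too. The first of them gave 1.29 (SE 0.39) with separate ages, and the dimmer one gave 0.04 (SE 0.24), with means of 6.86 at 18 months and 6.82 at 2 months. The mean of the 3 probe sets differed by 1.09. For the genes of its ligands, Pdgfa had a difference of -0.19 (SE 0.17), Pdgfb -0.29 (SE 0.18) and Pdgfc 0.35 (SE 0.26). The ages were separate for Pdgfa, at 10.22 to 10.60 in old mice and 10.62 to 10.67 in young mice. The 6 PDGF pathway genes tested, 2 above 0 and 4 below, held 0 with an unadjusted p under 0.05.

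Pdgfra also marks oligodendrocyte precursors, and 8 of the 9 other precursor markers listed had a probe set. Of these 5 were tested, 2 with a difference above 0, and 3 (Olig2, Lhfpl3 and Pcdh15) lay below the brightest bacterial control. Their summed intensity ran from 281 to 535 at 18 months and from 281 to 407 at 2 months, so the ages overlapped. Cspg4, which encodes the NG2 proteoglycan of precursors and pericytes, differed by -0.19 (SE 0.18) and Gpr17, a receptor gene of precursors, by -0.60 (SE 0.24). Olig1 differed by 0.74 (SE 0.79), Sox10 by 0.25 (SE 0.30) and C1ql1 by -0.35 (SE 0.22). Gpr17 was the 1 precursor marker of 5 lower at an unadjusted p under 0.05 (3.03% of all genes), and 0 were higher (4.02%). Pdgfrb, the beta receptor gene of mural cells and fibroblasts, differed by 0.04 (SE 0.19).

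Colec12, which encodes a scavenger receptor of the collectin family, ran the opposite way to Pdgfra. The log2 intensity was 4.80, 5.27 and 5.23 in old mice and 7.17, 6.86 and 6.35 in young mice, so that its levels in old mice lay just above the brightest bacterial control. Means were 5.10 ± 0.26 and 6.79 ± 0.42 (SD, n = 3 each), with separate ages. The difference was -1.69 (SE 0.27, 95% confidence interval -2.33 to -1.06; limma adjusted p = 0.228), or 3.23-fold lower at 18 months. It rests on 1 probe set. Foxc1, a forkhead transcription factor gene needed for meningeal and mesenchymal development, read 5.29, 5.52 and 6.52 in old mice and 6.55, 7.06 and 6.44 in young mice. The means were 5.77 ± 0.65 and 6.68 ± 0.33 (SD, n = 3 each), and 18-month replicate 3 lay within the young range. The difference of -0.91 (SE 0.36, interval -1.77 to -0.04, limma adjusted p = 0.706) was -1.28 without that mouse and the unadjusted p was above 0.05 when any other mouse was left out, with differences from -0.66 (without 18-month replicate 1) to -1.03 (without 2-month replicate 3). The second Foxc1 probe set, below the filter, gave -0.19 (SE 0.54). With the mean of its probe sets the difference was -0.55 (SE 0.39), no longer at an unadjusted p under 0.05.

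The other identity genes gave no separation of the ages. Vim, the intermediate filament gene of mesenchymal cells and also of glia, was the brightest of them. Its values were 9.88, 9.96 and 10.63 in old mice and 9.93, 10.08 and 10.37 in young mice. The difference of 0.03 (SE 0.26, interval -0.58 to 0.65) was -0.23 once 18-month replicate 3 and 2-month replicate 2, the extremes of the main axis of variation, were both left out. This Vim probe set carries the array suffix for probe sets whose probes may also match other transcripts. The other Vim probe sets gave 0.20 (SE 0.31) and -0.56 (SE 0.29). Slc6a13, which encodes the GABA and taurine transporter GAT2 of leptomeningeal cells, differed by 0.46 (SE 0.33), with 4.80 to 5.57 at 2 months and 5.05 to 6.07 at 18 months. The transcription factor genes Twist1 and Tbx18, of mesenchyme and of mural and meningeal cells, had means of 4.03 and 3.76, below the filter.

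The small leucine-rich proteoglycans, which coat collagen fibrils, held 2 genes with an unadjusted p under 0.05 among the 6 tested, both lower at 18 months. Over all genes 3.03% were lower at that p. Of the 6 differences 5 were below 0 (median -0.40). Ogn, which encodes osteoglycin or mimecan, had log2 intensities of 10.25, 9.64 and 10.02 in old mice and 10.80, 10.35 and 11.17 in young mice. Its means were 9.97 ± 0.31 and 10.77 ± 0.41 (SD, n = 3 each). Dcn, the gene for decorin, read 7.91, 7.89 and 8.59 against 8.72, 9.10 and 8.74, with means of 8.13 ± 0.40 and 8.85 ± 0.21. For each, every old mouse was below every young one, although by only 0.10 log2 units for Ogn and 0.13 for Dcn between the nearest mice. The difference was -0.80 for Ogn (SE 0.27, interval -1.46 to -0.15; 1.75-fold) and -0.72 for Dcn (SE 0.25, interval -1.32 to -0.12; 1.65-fold), with a limma adjusted p of 0.672 for both. The second Ogn probe set gave -0.74 (SE 0.22), and the second Dcn probe set, below the filter, -0.37. The unadjusted p of Ogn was above 0.05 without 18-month replicate 2 (-0.64), 2-month replicate 1 (-0.79) or 2-month replicate 3 (-0.61). That of Dcn was so without 18-month replicate 1 (-0.61) or 2 (-0.60) or 2-month replicate 2 (-0.60).

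Lum, the lumican gene, had 5.27, 4.83 and 4.83 in old mice against 6.03, 5.28 and 5.19 in young mice, with 1 old mouse inside the young range (difference -0.52, SE 0.28). Bgn, which encodes biglycan, differed by -0.28 (SE 0.28), and its 3 probe sets gave -0.28 to -0.41. Prelp, the gene for a proline- and arginine-rich proteoglycan that anchors basement membranes, was the brightest of this class. Its values of 11.32, 11.21 and 10.98 in old mice and 11.27, 11.37 and 11.21 in young mice overlapped (difference -0.11, SE 0.17, or 0.028 once the same 2 extreme arrays were left out). Its second probe set gave -0.58 (SE 0.17) with separate ages, so the 2 probe sets of Prelp did not give the same size. Fmod, the fibromodulin gene, was the only tested member of the class with a difference above 0, at 0.43 (SE 0.30). It had 9.77, 10.41 and 10.90 in old mice and 9.74, 10.04 and 10.01 in young mice, with the first old mouse among the young ones. All 6 Fmod probe sets lay above 0, from 0.23 to 0.43, but 5 of the 6 carry the array suffix for probe sets whose probes may also match other transcripts. Aspn, the asporin gene, had a mean of 2.88, below the filter.

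These proteoglycan genes lie in clusters in the genome, as their order in RefSeq (GRCm38.p6) shows. Dcn and Lum adjoin Kera and Epyc on chromosome 10, Ecm2, Aspn, Omd and Ogn follow one another on chromosome 13, and Optc, Prelp and Fmod do so on chromosome 1. In the first cluster both genes bright enough to test, Dcn and Lum, had differences below 0. In the second Ogn did as well. Its cluster neighbour Ecm2, which encodes a matrix protein of the same repeat family, was at -0.81 (SE 0.28), but with a mean of 4.84 in old mice and 5.65 in young mice it passed the filter only through the young ones. Ecm2 read 5.04, 5.18 and 4.29 in old mice and 5.45, 5.60 and 5.89 in young mice, with separate ages. In the cluster on chromosome 1, Prelp was at -0.11, Fmod at 0.43 and Optc, the opticin gene, at -0.0011 (SE 0.17). Kera, Epyc, Aspn and Omd lay under the brightest bacterial control, with means from 2.32 to 3.81. The grouping by position was made after these values were seen. Of the 3 further proteoglycan genes of this class tested, Ecm2 was lower at an unadjusted p under 0.05 (3.03% of all genes) and 0 were higher (4.02%). Podn, the podocan gene, differed by 0.78 (SE 0.40), with separate ages, although the nearest old and young mice were both at 6.17.

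Elastic fibre genes and the enzymes that cross-link the fibres held 1 gene of 5 tested at an unadjusted p under 0.05. It was higher at 18 months, as were 4.02% of all genes at that p. The gene was Eln, which encodes elastin, the rubber-like core of the fibre. It had log2 intensities of 8.17, 7.52 and 7.04 in old mice and 6.85, 6.81 and 5.84 in young mice. With means of 7.58 ± 0.57 and 6.50 ± 0.57 (SD, n = 3 each), the ages were separate, but the lowest old mouse and the highest young one differed by only 0.19. The difference was 1.08 (SE 0.39, interval 0.14 to 2.01; limma adjusted p = 0.682), or 2.11-fold. It passed an unadjusted p of 0.05 no longer without 18-month replicate 1 (0.78) or 2 (1.11) or 2-month replicate 3 (0.75), or with the mean of both probe sets (0.62). The second probe set gave 0.16 (SE 0.24).

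The scaffold genes around elastin did not separate the ages. Fbln1, the gene for fibulin-1, had 9.08, 9.48 and 8.94 in old mice and 9.17, 9.10 and 9.82 in young mice (difference -0.20, SE 0.26; 0.032 without 2-month replicate 3). Fbln5, whose product tethers elastin to cells, differed by 0.14 (SE 0.35), or by -0.33 with the mean of its probe sets. The second Fbln5 probe set had a mean of 3.23, below the filter and the brightest bacterial control. Loxl1, which encodes a lysyl oxidase that cross-links elastin, differed by -0.23 (SE 0.33), or by 0.072 without 2-month replicate 2. Efemp1, the fibulin-3 gene, varied most between mice. It read 6.84, 5.56 and 7.90 in old mice and 8.17, 4.79 and 6.76 in young mice, a span of 3.38 log2 units among young mice alone, and its difference of 0.19 (SE 0.94) was -0.70 without 2-month replicate 2. Mfap4, Mfap5, Fbln2 and Lox had means from 3.38 to 4.21, below the filter. Among 20 tested partners of fibre assembly outside the group (such as Ltbp, Plod and Pcolce genes), 0 were at an unadjusted p under 0.05 and 11 lay above 0 (median 0.01). Pcolce, which encodes an enhancer of procollagen processing, had separate ages at 12.04 to 12.20 in old and 12.26 to 12.79 in young mice (difference -0.39, SE 0.19).

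**Figure D2:**
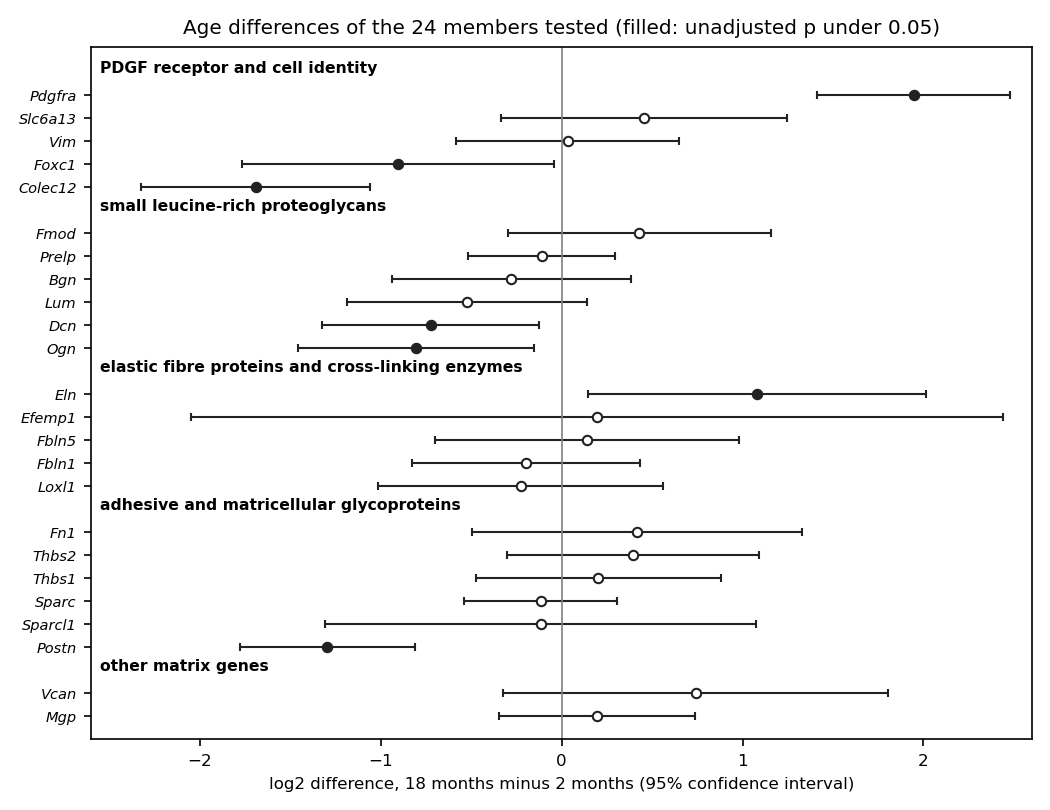
Difference in log2 intensity, 18 minus 2 months (horizontal axis), for the 24 genes tested, grouped by role, with 95% confidence intervals from limma. Filled points have an unadjusted p under 0.05. The intervals of the 17 open points include 0, and that of Efemp1 is the widest, from -2.05 to 2.44.

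Of 6 tested genes for adhesive and matricellular glycoproteins, which link cells to fibres or tune their attachment, Postn alone had an unadjusted p under 0.05. It was lower at 18 months, as were 3.03% of all genes at that p. Postn encodes periostin, a protein of remodelling connective tissue. Its single probe set read 8.27, 8.56 and 8.21 in old mice and 9.89, 9.40 and 9.63 in young mice. Every old mouse lay at least 0.84 log2 units below every young one, around means of 8.34 ± 0.19 and 9.64 ± 0.24 (SD, n = 3 each). The difference was -1.30 (SE 0.20, interval -1.78 to -0.81; limma adjusted p = 0.228), or 2.46-fold lower at 18 months, and it ranged from -1.42 to -1.17 when single mice were left out.

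Fibronectin, thrombospondin and Sparc genes overlapped between ages. Sparc, the gene for osteonectin, a collagen-binding protein, had 11.92, 11.95 and 11.78 in old mice and 12.07, 12.15 and 11.78 in young mice (difference -0.12, SE 0.18, or 0.012 once the 2 extreme arrays were left out). Fn1, the fibronectin gene, differed by 0.42 (SE 0.38). The thrombospondin genes Thbs1 and Thbs2 differed by 0.20 (SE 0.28) and 0.39 (SE 0.29), Thbs1 by -0.0077 without 18-month replicate 1. Sparcl1, the gene for hevin, which astrocytes and vessels also make, read 7.15, 7.59 and 8.48 in old mice and 8.08, 6.95 and 8.54 in young mice (difference -0.12, SE 0.50). Within each age its mice stood in the same order as in the summed intensity of 14 neuron markers, which was 2584, 5197 and 9038 at 18 months and 4120, 2464 and 8414 at 2 months. The part of brain tissue in the level of Sparcl1 was not tested. Tnc, the tenascin-C gene, had a mean of 3.73, below the filter.

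Outside these roles, Mgp, the gene for matrix Gla protein, an inhibitor of calcification, had 9.85, 9.85 and 10.42 in old mice and 9.62, 9.91 and 10.00 in young mice (difference 0.20, SE 0.23). Vcan, which encodes the large hyaluronan-binding proteoglycan versican, had 4.99, 6.16 and 6.43 against 5.72, 4.72 and 4.92 (difference 0.74, SE 0.44). For Mgp 2 old mice lay within the young range, and for Vcan 1 did, so neither gene separated the ages.

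**Figure D3:**
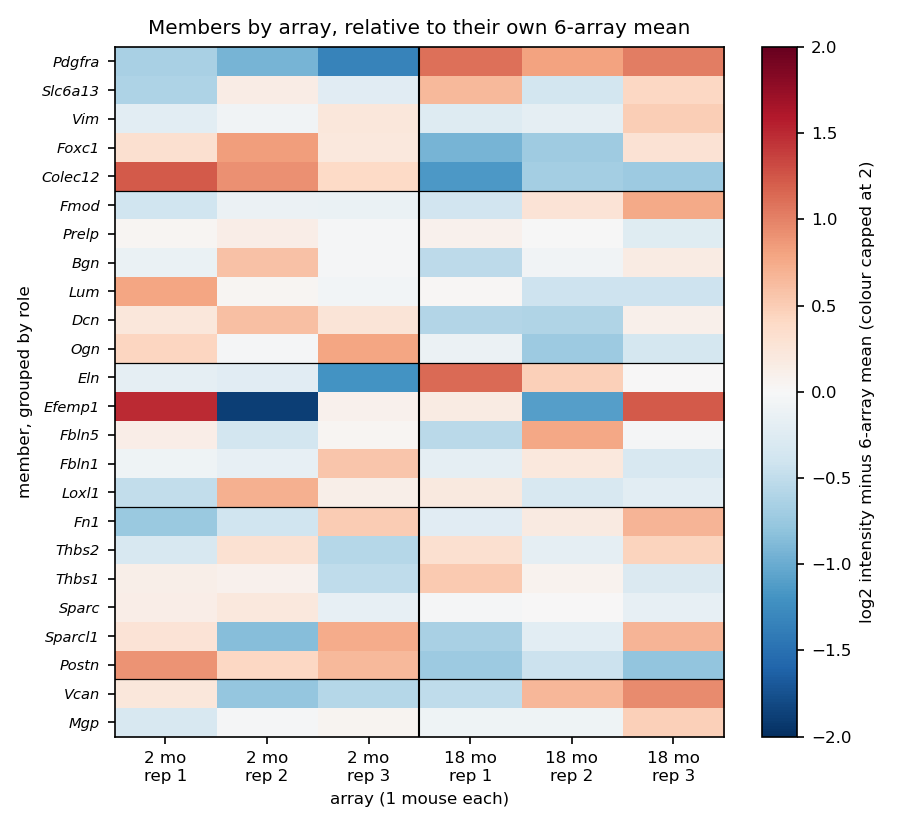
Each of the 24 genes (rows, grouped by role) in each array (columns, 2 months left of the line), as log2 intensity minus the mean of that gene over 6 arrays. Pdgfra and Eln are high on the right, Colec12 and Postn on the left, and Efemp1 varies within both ages.

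Upstream sequence is shown for the 3 genes with separate ages that have an entry in the RefSeq promoter table (GRCm38.p6), since these are the genes whose levels parted the ages. Each window holds the 250 bases before a transcription start, 5′ to 3′ on the plus strand, on which all 3 genes lie. Capitals mark matches on either strand to 5 motifs, searched in all 32851 windows of that table. The core TATA box TATAAA was present in 12.4% of them and the CCAAT box in 33.8%. The GC box core GGGCGG was present in 32.7%, the AP-1 motif TGANTCA in 6.75% and the TEAD motif CATTCC in 12.6%. Different motifs share no letters in the windows shown. Postn has 2 starts in the table.
Pdgfra, chr5:75152001-75152250: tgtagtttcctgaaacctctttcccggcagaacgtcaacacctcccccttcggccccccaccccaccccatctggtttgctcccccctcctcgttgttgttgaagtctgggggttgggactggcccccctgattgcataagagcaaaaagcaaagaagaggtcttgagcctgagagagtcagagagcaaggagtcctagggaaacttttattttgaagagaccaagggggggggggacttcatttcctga
Postn, upstream start, chr3:54359017-54359266: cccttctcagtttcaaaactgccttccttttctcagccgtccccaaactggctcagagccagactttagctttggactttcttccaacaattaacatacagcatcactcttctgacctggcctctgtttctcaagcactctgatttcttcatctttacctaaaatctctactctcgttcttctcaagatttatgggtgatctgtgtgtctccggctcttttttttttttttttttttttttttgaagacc
Postn, downstream start, chr3:54360857-54361106: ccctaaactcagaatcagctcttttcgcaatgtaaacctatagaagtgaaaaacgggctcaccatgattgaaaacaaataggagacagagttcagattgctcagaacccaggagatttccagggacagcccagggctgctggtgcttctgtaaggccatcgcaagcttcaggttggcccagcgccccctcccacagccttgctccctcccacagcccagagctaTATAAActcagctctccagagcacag
Ogn, chr13:49607765-49608014: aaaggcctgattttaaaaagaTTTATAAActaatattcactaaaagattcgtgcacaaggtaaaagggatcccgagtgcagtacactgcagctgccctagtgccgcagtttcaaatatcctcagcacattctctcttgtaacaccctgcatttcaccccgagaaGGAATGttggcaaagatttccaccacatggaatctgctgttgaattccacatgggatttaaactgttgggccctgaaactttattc
The Pdgfra window, 54.4% G and C, and the upstream Postn window, 40.4%, held no match to the 5 motifs. The downstream Postn window, 52.0%, held TATAAA from 26 to 21 bases before the start. That of Ogn, 42.0%, held TATAAA on both strands in overlapping letters, from 229 to 222 bases before the start, and GGAATG, the reverse complement of CATTCC, from 86 to 81 bases before it. These letters do not show that a factor binds there. Over all 31 windows of the 23 listed genes in the table, 8 held TATAAA, or 25.8%, 15 held GGGCGG, or 48.4%, and 10 held CCAAT, or 32.3%. The AP-1 motif was in 1 window, or 3.23%, and the TEAD motif in 2, or 6.45%.

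Probe sets of 1 gene did not always agree. Of the 73 probe sets 44 reached the filter, and 12 genes had more than 1 such probe set. For 10 of the 12 all of these lay on the same side of 0, and the exceptions were Vim (-0.56 to 0.20) and Fbln1 (-0.32 to 0.04). Pdgfra and Eln kept the sign but not the size, as given above.

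**Figure D4:**
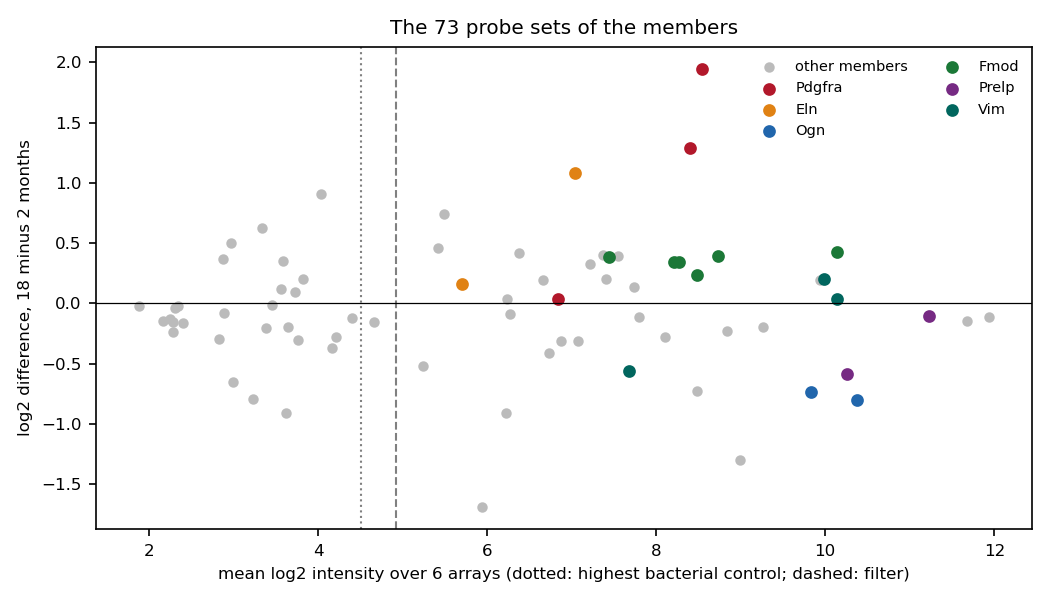
Difference in log2 intensity, 18 minus 2 months (vertical axis), against the mean log2 intensity over 6 arrays (horizontal axis) for the 73 probe sets, with selected genes coloured. The dotted line is the brightest bacterial control, 4.51, and the dashed line the filter, 4.92. The 3 Pdgfra probe sets spread from 0.04 to 1.95, while the 6 Fmod probe sets lie between 0.23 and 0.43.

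Fibroblast genes outside the group differed in both directions. Of 20 tested (collagen chains, Islr, Mmp2, Igf2 and others), 0 had an unadjusted p under 0.05, 11 lay above 0 and 9 below, and the median was 0.03. Col1a2, a chain of type I collagen, had the smallest p of these, with 8.14, 8.61 and 8.92 in old mice and 8.94, 9.21 and 8.96 in young mice (difference -0.48, SE 0.24) and separate ages. Col3a1, the type III collagen gene, spanned 4.44 to 7.19 in old mice and 6.05 to 6.70 in young ones. Col6a1, a chain of type VI collagen, spanned 5.18 to 9.29 in old mice and 5.24 to 6.66 in young ones, highest in 18-month replicate 3. Of 14 tested meningeal and arachnoid markers, 12 lay above 0 (median 0.33). At an unadjusted p under 0.05, 1 was higher, the amino acid transporter gene Slc6a20a (0.75, SE 0.19), beside 4.02% of all genes. The lists share some genes: Thy1 is in both the fibroblast and neuron lists, and Cldn11 in both the meningeal and oligodendrocyte lists.

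Further matrix genes gave single differences in both directions. Over all genes tested, 4.02% were higher and 3.03% lower at an unadjusted p under 0.05. Among 23 tested genes for hyaluronan handling and large proteoglycans, 4 were lower at an unadjusted p under 0.05 and 0 higher (median -0.06). These were Sdc1, the syndecan-1 gene (-0.98, SE 0.23), Ncan, the neurocan gene of brain matrix (-1.20, SE 0.30), Has1, a hyaluronan synthase gene (-0.48, SE 0.18), and Gpc3, the glypican-3 gene (-0.72, SE 0.29). For Sdc1, Ncan and Has1 the ages were separate. Gpc3 passed the filter only through the young mice, with means of 4.80 at 18 months and 5.52 at 2 months. Has1 read 6.36, 6.13 and 6.33 in old mice against 6.77, 6.92 and 6.57 in young mice. Of 17 other matricellular genes tested, 1 was higher, Spock1, a testican gene (1.62, SE 0.50), and 2 were lower, Matn2, the matrilin-2 gene (-0.99, SE 0.34), and Npnt, the nephronectin gene (-0.89, SE 0.33). Of 21 matrix receptor genes, 1 was lower, the collagen-binding integrin gene Itga1 (-1.35, SE 0.45), and 0 were higher (median 0.05). Of 15 genes of the TGF-beta pathway, which drives matrix synthesis in fibroblasts, 0 were at an unadjusted p under 0.05 and the differences ran from -0.31 to 0.29 (median 0.03).

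Markers of other cells show what varied beside these genes. The median log2 intensity of the arrays lay between 5.56 and 5.65, and the main axis of variation, with 28.5% of the variance, had 18-month replicate 3 at one end and 2-month replicate 2 at the other. With both of these arrays left out, 2 of the 24 genes were higher and 6 lower at an unadjusted p under 0.05. Over all genes these shares were 3.86% and 3.14%. The added gene was Sparcl1 (-0.94), and the differences of Pdgfra, Colec12 and Postn were 1.94, -1.72 and -1.35. With the mean level of the neuron markers as a covariate, the same 2 were higher and the same 5 lower, and those differences were 1.94, -1.69 and -1.30. Over all genes 4.53% were higher and 3.41% lower in that fit. The centred neuron level was nearly balanced between ages, at -0.87, -0.10 and 0.96 in old mice and -0.16, -0.72 and 0.89 in young mice. Such a covariate could barely move these differences, so the fit does not decide the part of brain tissue in them. The pituitary genes, of which 11 of 12 had a probe set, summed to 1289 to 2247 at 18 months and 555 to 687 at 2 months, with Fshb, Tshb, Tbx19 and Cga under the brightest bacterial control on average. The 14 ependymal and ciliated cell markers summed to 11863 to 12480 and 12589 to 13944, and the 13 epithelial markers with a probe set, of 15, to 86440 to 86910 and 90284 to 92831. These 3 sums separated the ages as the leading genes did, but the mean log2 level of the epithelial markers, each centred on its own mean, overlapped between ages (median difference -0.07). Of 6 pituitary markers tested, 3 lay above 0 (median 0.0003), with Gh at 4.98 (SE 0.45). Gh passed the filter only through the old mice, with means of 9.89 at 18 months and 4.91 at 2 months. At an unadjusted p under 0.05, 2 of the 6 pituitary markers were higher, Gh among them, and 0 lower. Of 13 ependymal markers tested, 2 lay above 0 (median -0.11), and 2 were lower and 0 higher at that p. Of the lower ones, Fam183b passed the filter only through the young mice, with means of 4.55 at 18 months and 7.36 at 2 months. Macrophage and microglia markers summed to 6618 to 10651 at 18 months and 5024 to 7389 at 2 months, which overlap. The median difference of the 18 tested was 0.31, with 12 above 0. At an unadjusted p under 0.05, 5 of them were higher, beside 4.02% of all genes, and 0 lower, beside 3.03%. The higher ones were Ms4a7 (2.04, SE 0.35), Lyz2 (1.36, SE 0.31), Aif1 (1.34, SE 0.44), Ctss (1.07, SE 0.34) and C1qb (0.68, SE 0.27). Fcgr3, Tyrobp, P2ry12, Tmem119, Siglech and C1qa lay below 0. For Fcgr3 (-0.79, SE 0.34) the ages were separate, at 6.26 to 7.13 in old mice and 7.24 to 8.14 in young mice. Among oligodendrocyte markers, with overlapping sums of 3163 to 8362 and 2412 to 8192, 10 of 11 lay above 0 and 2 were higher at that p. These were the myelin genes Mog (1.75, SE 0.33) and Ermn (2.26, SE 0.88), and for Mog the ages were separate, from 6.96 to 7.60 in old mice and from 5.18 to 6.21 in young mice. The sums of astrocyte (4810 to 7597 against 3688 to 6468), endothelial (1048 to 1412 against 1070 to 1363) and mural markers (1239 to 1701 against 1335 to 1383) overlapped, with 0 astrocyte and 0 endothelial markers at that p and 1 of 10 mural markers lower, Myl9 (-0.47, SE 0.19). The part of these cell types in the differences of the leading genes was not tested.

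**Figure D5:**
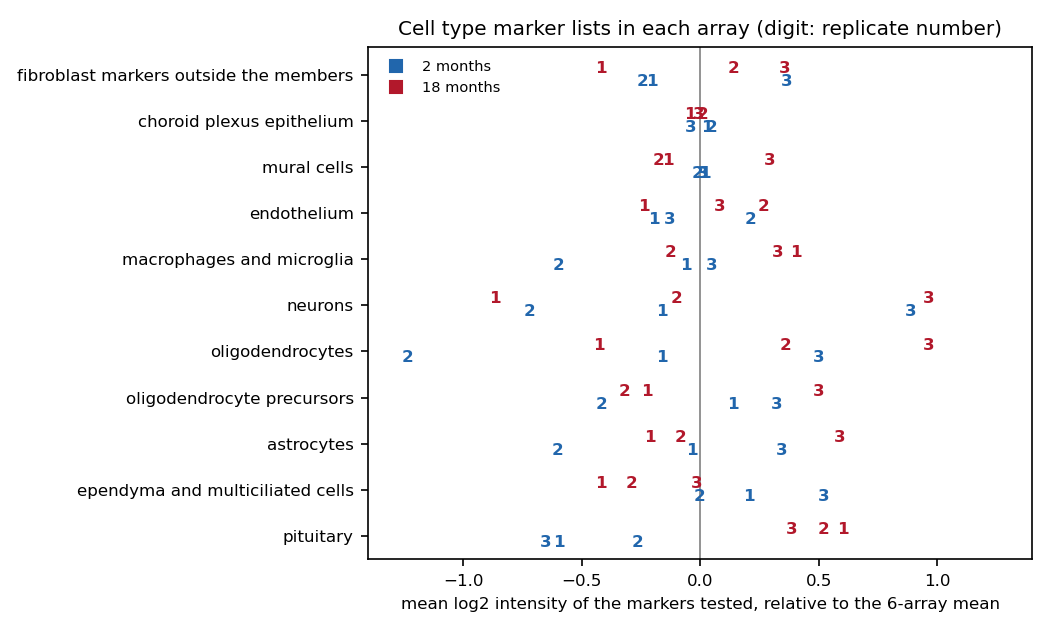
Mean log2 intensity of the tested markers of each cell type list (rows), relative to the mean over 6 arrays (horizontal axis), for each mouse, shown by its replicate number in blue (2 months) or red (18 months). Pituitary markers separate the ages, and so do ependymal markers, narrowly, with -0.015 in the nearest old mouse and -0.0035 in the nearest young one. Neuron markers are highest in replicate 3 of both ages.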

How the data were processed

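Total RNA of 6 mouse choroid plexus samples, 3 per age, was amplified with a Nugen Pico kit and hybridised to Affymetrix arrays, per the labels' protocols. The authors deposited 1 table of intensity values for 45101 probe sets, made with RMA per the submitters' processing notes (version not given in the sources used here). The deposited values run from 2.47 to 26820.7, a linear scale, so log2 was taken. Amplification of small inputs can distort dim transcripts. No 2 arrays were identical.

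A gene was read by its brightest probe set named for it alone, and tested if its mean reached the 40th percentile of non-control probe sets. Ages were compared with limma 3.58.1 in R 4.3.3 (two-sided, no covariate, 6.61 degrees of freedom), adjusted by Benjamini-Hochberg over 12681 genes at 0.05. Single probe sets were tested in a fit over the 34945 probe sets with 1 symbol. The script was tested on simulated data. Lists are given by counts and medians. Values for every mouse are given for genes of the group at an unadjusted p under 0.05 or with separate ages, and for the brightest of each role. Up to 4 genes of each further list are named by smallest p, while other genes were named after their values were seen. The members and lists were chosen with earlier results of these data known. The number of arrays limits the precision.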

Additional observations from a re-analysis of the deposited data

How the results depend on the processing

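Of the 24 genes tested, 15 kept their sign under every alternative that gave a value and 9 did not. Pdgfra, Colec12 and Postn kept theirs (1.09 to 2.10, -1.91 to -1.50 and -1.42 to -1.17), and the adjusted p of the 24 genes stayed above 0.05 in all 16 alternatives. With a 60th percentile filter, which leaves 19 of the genes, 3 were lower at an unadjusted p under 0.05, beside 3.17% of all genes. With the mean of all probe sets 1 was higher at that p, beside 4.17% of all genes. In that setting 1 had separate ages in the higher direction, beside 7.20%, Vim was at -0.11 and Fbln5 at -0.33. The second Fbln5 probe set in that mean lay below the filter. With array weights Efemp1 was at -0.32. Leaving out the 2 extreme arrays of the main axis together, which like the neuron covariate was chosen after seeing the data, put Vim at -0.23, Prelp at 0.028, Efemp1 at -1.26, Loxl1 at 0.12 and Sparc at 0.012.

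Leaving out 1 mouse at a time gave 2 to 5 genes lower and 1 to 3 higher at an unadjusted p under 0.05, 4 to 7 and 2 to 4 with separate ages in the lower and higher direction, and a median difference of -0.081 to 0.094. It gave Vim from -0.20 to 0.17, Efemp1 from -0.70 to 0.99, Fbln5 from -0.21 to 0.44, Loxl1 from -0.53 to 0.072, Fbln1 from -0.35 to 0.032, Sparcl1 from -0.57 to 0.23 and Thbs1 from -0.0077 to 0.40. The share of all genes at an unadjusted p under 0.05 was 2.25% to 3.18% lower and 3.26% to 3.90% higher in these fits. Fewer mice ease the separation of ages: its share among all genes was 11.55% to 12.95% higher and 9.99% to 13.1% lower in these fits. Otherwise the cause was not tested. Mice of replicate numbers 1 and 2 hardly deviated together (correlations of -0.015 and 0.019), while those of number 3 had the highest correlation of all pairs, 0.17. Not every mouse correlated best with its own number, so the numbers are not taken as pairs. With the replicate block in limma, 2 genes were higher and 5 lower at an unadjusted p under 0.05, Lum in place of Foxc1, and 0 passed the adjusted p. Over all genes 3.98% were higher and 3.09% lower at the unadjusted p. The block took the SE of Eln from 0.39 to 0.21 and that of Colec12 from 0.27 to 0.30. Without a filter all 33 genes with a probe set were tested. At an unadjusted p under 0.05, 2 were higher, beside 3.46% of all genes, and 5 lower, beside 2.84%, with 0 of the 9 dim genes among them. Their signal, within that of the bacterial controls, limits what those 9 can show.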

Other observations

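Some dim or variable genes of the stroma differed between mice of one age more than between ages. Twist1, a transcription factor gene of mesenchyme, had 3.53, 4.82 and 5.10 in old mice and 3.53, 3.67 and 3.54 in young mice, with 2 old mice above the brightest bacterial control and every young mouse below it. Mfap5, a microfibril gene, read 5.12 in 18-month replicate 3 and between 2.79 and 3.83 in the other 5 mice. Both genes lay below the filter.

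The same 18-month replicate 3 had the highest value of 6 of the 24 genes tested, as did 2-month replicate 2, beside 1 to 4 in each of the other 4 mice. Its Notch3, a receptor gene of mural cells, was 8.44 against 5.69 to 6.36 in the other mice. These genes were chosen after their values were seen.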
